A study of Mus musculus and Homo sapiens with 67 samples.

Results

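The laminin chains described here are 7 genes, LAMA3, LAMA4, LAMA5, LAMB1, LAMB2, LAMB3 and LAMC1. They were taken by gene symbol, ignoring case, from tables of 60564 genes for human cells and 55335 genes for mouse samples, and all 7 were listed in each of the 4 tables. RNA was measured by RNA-seq in 52 samples of pancreatic ductal adenocarcinoma models: the established human lines PSN1 and SW1990, mouse KPC cells and KPC tumours grown orthotopically, that is, in the mouse pancreas. Every model had 4 arms: control (DMSO for cells, vehicle for tumour-bearing mice), tazemetostat, RMC-6236 and the combination of both drugs, with 3 libraries an arm in cells and 4 in tumours. Tazemetostat inhibits EZH2, the histone methyltransferase of polycomb repressive complex 2, and RMC-6236 inhibits RAS proteins in their active, GTP-bound state. KPC is the usual name of a genetically engineered mouse model of this cancer, but the labels give no genotype, clone, mouse strain or age, dose or treatment time. Column headers of the tumours carry a number after KPC that those of the cells lack, and nothing says that both are the same line.

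Laminins are large glycoproteins of the basement membrane, the sheet of matrix under epithelia and around vessels. Each laminin is a trimer of an alpha, a beta and a gamma chain, each encoded by its own gene, and the alpha chain carries the main sites for cell receptors such as integrins and dystroglycan. LAMA5 encodes an alpha chain of most adult epithelial and vascular basement membranes, LAMA4 that of endothelial, muscle and fat laminins, and LAMA3 that of the epithelial laminin anchored at hemidesmosomes, where it pairs with LAMB3. LAMB1 and LAMB2 are alternative beta chains that pair with LAMC1, the most widespread gamma chain.

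The mouse RefSeq promoter table (GRCm38.p6) held 4 of the 7 chains, and these are shown because the others had no entry. All 4 changed with RMC-6236 in KPC cells. Lamb3 had 2 entries, and the second, at chr1:193301993-193302242, lies in an annotated exon from its first base and is not printed. The lines give the 250 bases before the annotated start, 5' to 3' on the gene's strand, cut where an annotated exon begins, and capitals mark the GC box GGGCGG on either strand. Lama5 lies at chr2:180225860-180226109 on the minus strand, Lamb1 at chr12:31265043-31265233, Lamb2 at chr9:108479612-108479735 and Lamb3 at chr1:193301744-193301992, all 3 on the plus strand.
Lama5: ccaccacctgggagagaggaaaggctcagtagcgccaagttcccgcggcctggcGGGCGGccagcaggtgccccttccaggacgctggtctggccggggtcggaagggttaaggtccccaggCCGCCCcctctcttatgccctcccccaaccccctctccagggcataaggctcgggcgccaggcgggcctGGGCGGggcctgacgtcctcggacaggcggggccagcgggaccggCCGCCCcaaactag
Lamb1: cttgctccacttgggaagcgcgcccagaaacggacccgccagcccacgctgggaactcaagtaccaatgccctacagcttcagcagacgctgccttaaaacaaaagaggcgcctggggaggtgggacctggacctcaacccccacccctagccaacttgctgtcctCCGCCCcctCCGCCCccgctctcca
Lamb2: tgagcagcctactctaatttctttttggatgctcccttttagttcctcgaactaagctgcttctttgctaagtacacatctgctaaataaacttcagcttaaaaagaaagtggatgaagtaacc
Lamb3: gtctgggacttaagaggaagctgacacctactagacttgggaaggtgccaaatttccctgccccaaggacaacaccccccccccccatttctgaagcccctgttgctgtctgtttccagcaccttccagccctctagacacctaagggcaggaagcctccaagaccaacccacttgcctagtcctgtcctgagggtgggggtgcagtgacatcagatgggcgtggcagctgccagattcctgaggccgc
The stretch of Lama5 held 4 GC boxes, that of Lamb1 held 2, and those of Lamb2 and Lamb3 held 0. Of 32851 mouse promoters in the table, 32.7% had at least 1 GC box in the full 250 bases. The AP-1 motif TGANTCA, searched on both strands, was in none of the full 250 base windows of these 4 genes and in 6.75% of all promoters. The GC box was chosen for the search after the sequences were seen, and both counts describe letters only.

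Values are FPKM, fragments scaled to transcript length and to the mapped fragments of the library, so levels of different chains in 1 table can be set side by side. FPKM keep no read totals, so depth and counting error are unknown, and levels were not compared between tables. Between 11489 and 13414 genes a library reached 1 FPKM. Of 8 epithelial markers 7 or 8 were at 1 FPKM or more in every PSN1 arm, 8 in SW1990 and in tumours, and 6 in KPC cells. Nothing in the labels says that libraries of an arm came from separate cultures, so p-values in cells measure only the spread between these libraries, which may be technical.

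In the control arms, the leading chains differed between PSN1, SW1990 and KPC cells, while KPC cells and KPC tumours shared theirs. LAMC1 was highest in PSN1, at 65.6 to 67.6 FPKM, followed by LAMB1 at 41.7 to 43 and LAMA5 at 31 to 32.2, while LAMA3 was at 0.9 to 1.01. In SW1990, LAMB3 led with 267 to 284 FPKM, and LAMA3 came next with 49 to 52.6. That is, the chains of the hemidesmosomal laminin were the highest in SW1990 and among the lowest in PSN1. Lama5 led in KPC cells, at 95.2 to 98.9 FPKM, with Lamc1 and Lamb1 near each other at 43.8 to 46 and 42.1 to 44. Lama5 also led in control tumours, at 84.7 to 99.1 FPKM, where Lamc1 at 55.2 to 62.9 and Lamb1 at 46.5 to 60.1 overlapped. Lama3, Lama4 and Lamb3 all stayed under 0.52 FPKM in control KPC cells, whereas control tumours held 3.68 to 8.3, 3.21 to 4.69 and 17.2 to 29.1 FPKM.

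**Figure D1:**
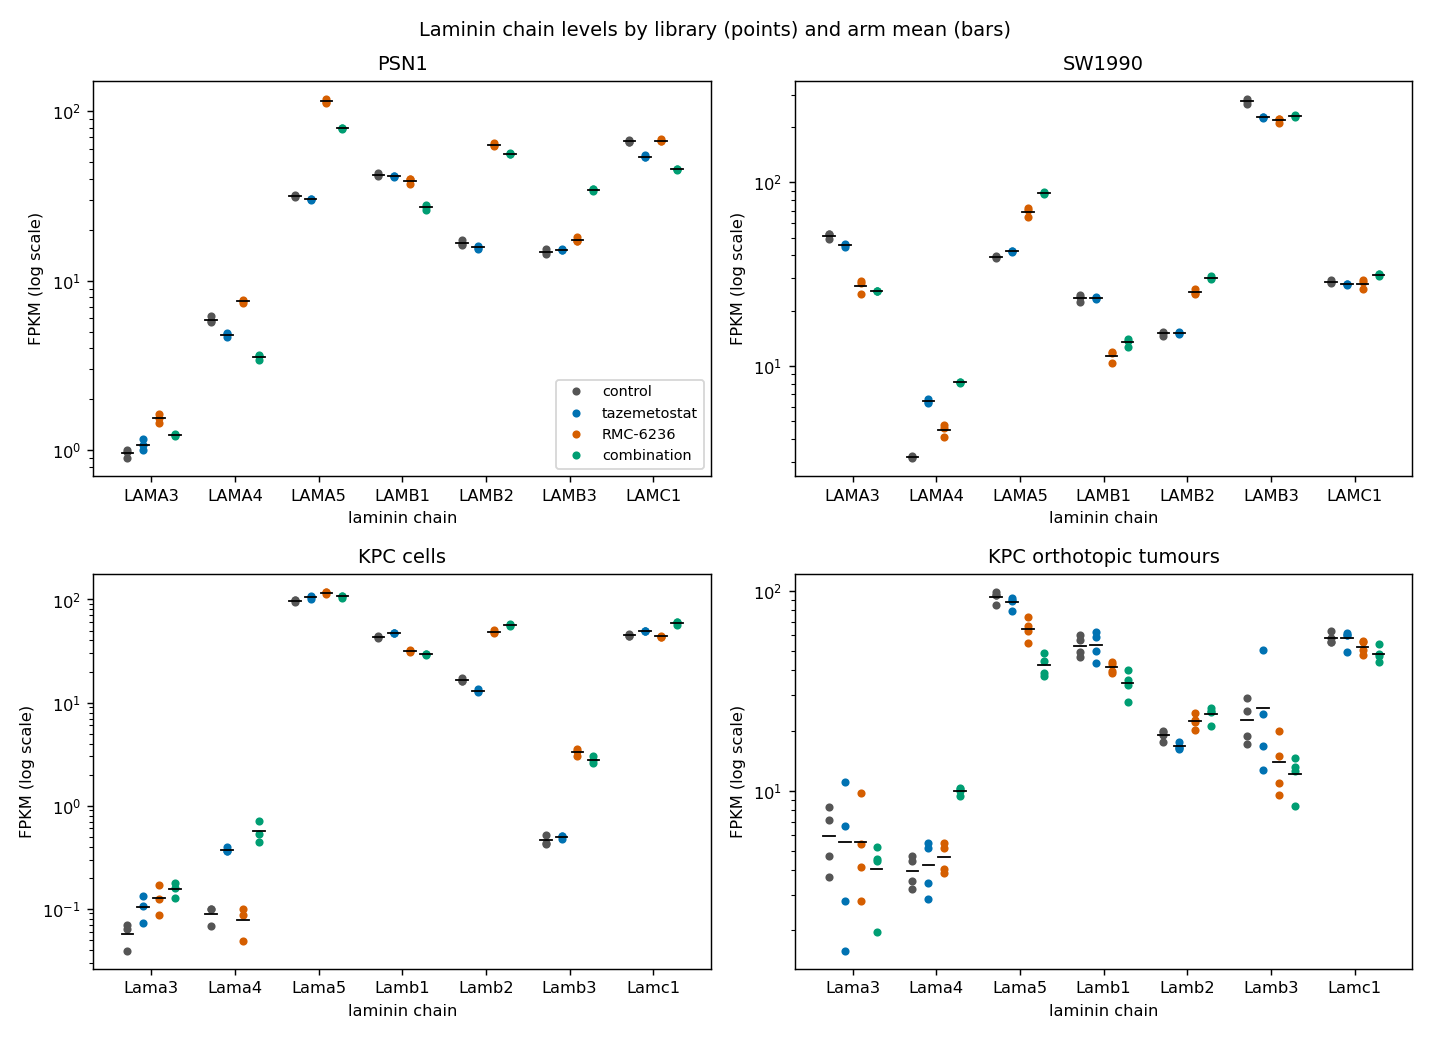
FPKM (log scale) of the 7 laminin chains in each library (points) and the arm mean (black bars), by table and arm. In PSN1 the RMC-6236 and combination libraries of LAMA5 and LAMB2 sit far above control, and in tumours the 4 combination libraries of Lama4 lie at 9.46 to 10.3 FPKM against at most 5.49 in all other libraries.

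RAS inhibition changed most chains in the cell lines, with LAMB2 and LAMA5 higher in all 3 of them. A change here is a difference of mean log2(FPKM + 1) between arms, called where the adjusted p of limma over all genes tested in that table was under 0.05. On this scale the change of a gene near or under 1 FPKM is understated. With RMC-6236 against control, 5 of 7 chains were higher in PSN1, where 45.8% of 13358 genes tested were called higher, and 1 was lower, where 34.6% were. Called shares this large mean that a call alone sets a chain little apart, and sizes say more: 2 of the 7 rose by 2-fold or more on the log2 scale, as did 6.19% of all genes, and 0 fell by as much (5.02%). In SW1990, 3 of 7 chains were higher (30.7% of 12913 genes) and 3 lower (41.7%), and 0 reached a 2-fold change (3.52% of genes upward and 4.55% downward). In KPC cells 5 chains were tested, since Lama3 and Lama4 did not reach 1 FPKM in 3 libraries. There 3 rose (37.9% of 12567 genes) and 1 fell (35.8%), and 2 rose (2.94%) and 0 fell (4.62%) by 2-fold or more. Of those 2, Lamb3 reached 1 FPKM only in the RMC-6236 and combination arms and was tested through them. In tumours 1 of 7 was higher (20.3% of 13545 genes) and 2 were lower (19.2%). The median change of the tested chains was 0.32 in PSN1, -0.04 in SW1990, 0.25 in KPC cells and -0.15 in tumours, beside 0.08, -0.06, 0.02 and 0.01 over all genes.

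**Figure D2:**
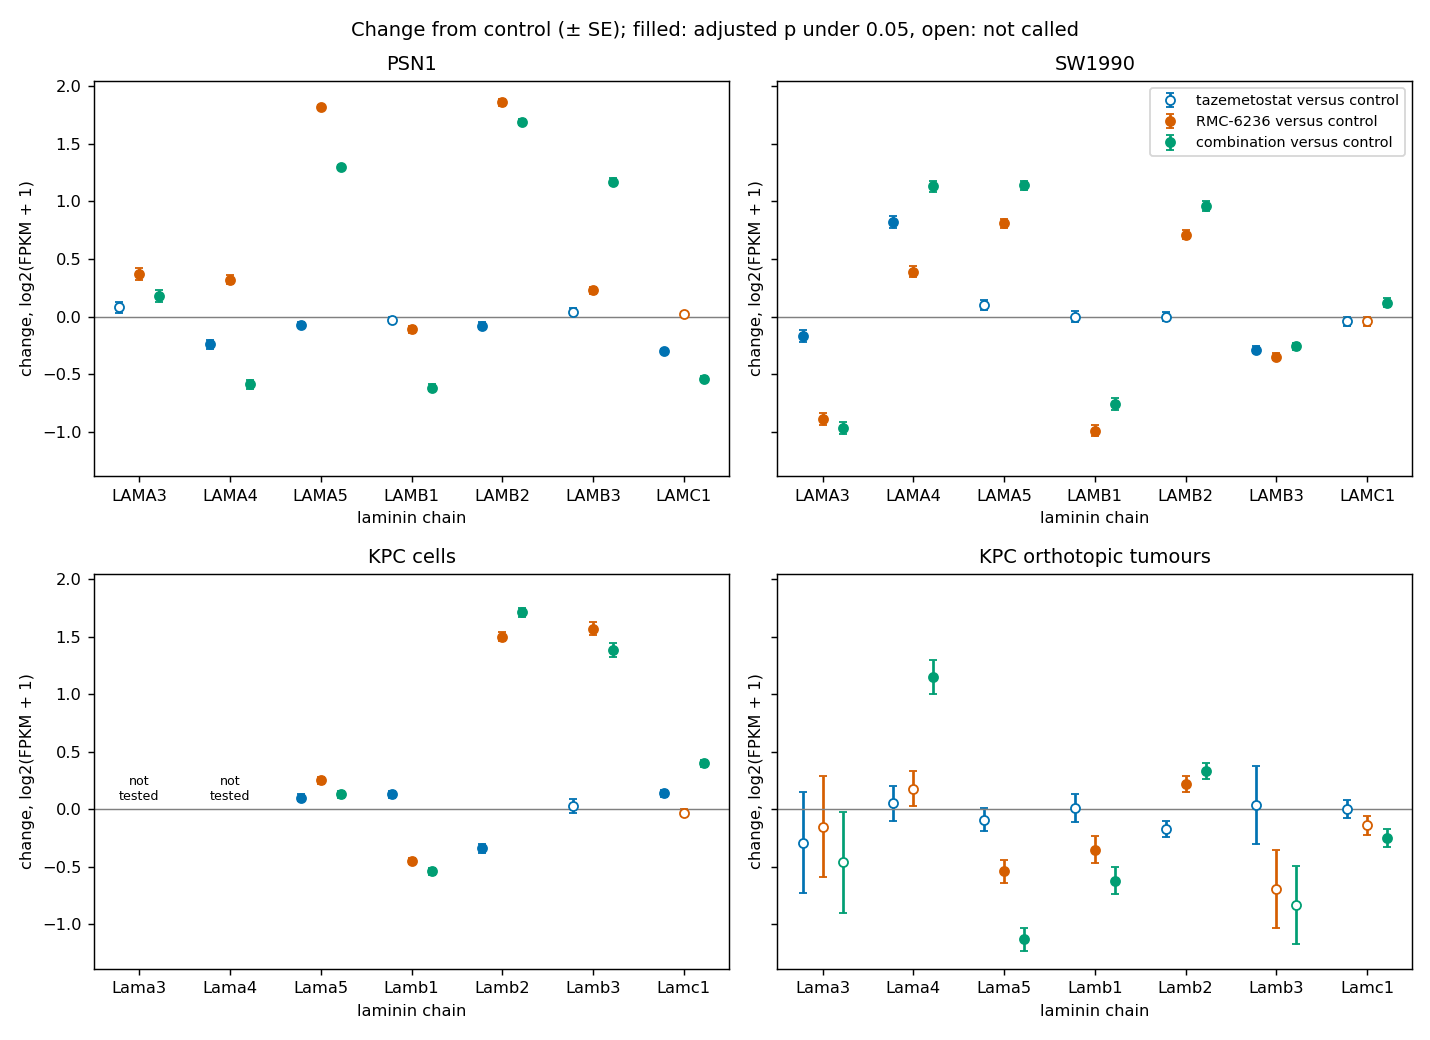
Change of each laminin chain from control in log2(FPKM + 1), with the standard error of the fit, for tazemetostat, RMC-6236 and the combination in each table; filled points passed an adjusted p of 0.05. LAMB2 lies above 0 with RMC-6236 in all 4 tables, from 0.22 in tumours to 1.86 in PSN1, and LAMA5 is above 0 in the cells and at -0.54 in tumours.

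LAMA5, the alpha chain of most adult epithelial basement membranes, rose with RMC-6236 in every cell model and fell in tumours. In PSN1 it was at 31.8, 31 and 32.2 FPKM in control libraries and at 111, 118 and 114 with RMC-6236, a 3.61-fold higher mean and a log2 change of 1.82 ± 0.02 (SE, adjusted p = 4.7e-15). The arms were far apart. In SW1990 it was at 39.1, 39.5 and 38.5 in control and 64.5, 71 and 72.3 with RMC-6236 (log2 change 0.81 ± 0.04, adjusted p = 5.6e-10). In KPC cells the arms were close but did not overlap, at 98.3, 95.2 and 98.9 against 119, 118 and 112 FPKM (0.25 ± 0.03, adjusted p = 2e-05). In tumours the order turned: control libraries were at 99.1, 84.7, 95.3 and 95.6 FPKM and RMC-6236 libraries at 55, 66.7, 62.8 and 73.7, all lower (-0.54 ± 0.10, adjusted p = 0.00053). In bulk tumours, fewer cells of a type and less RNA per cell cannot be told apart. The opposite signs in KPC cells and tumours come from separate tables, and their difference was not tested.

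With both drugs LAMA5 stood between or beyond the single arms depending on the model. In PSN1 the combination libraries were at 79.6, 80.1 and 78.2 FPKM, above control (1.30 ± 0.02, adjusted p = 4.6e-14) and below RMC-6236 alone (-0.52 ± 0.02, adjusted p = 1.5e-09). SW1990 combination libraries reached 87.8, 86 and 88.6 FPKM and were above RMC-6236 alone (0.33 ± 0.04, adjusted p = 1.2e-05). KPC cells with both drugs, at 103, 109 and 109 FPKM, were slightly below RMC-6236 alone (-0.12 ± 0.03, adjusted p = 0.012), which did not pass without the first combination library (adjusted p = 0.056). Tumours with both drugs had the lowest Lama5, at 44.7, 49.1, 38.7 and 37.4 FPKM, below control (-1.13 ± 0.10, adjusted p = 3.1e-07) and below RMC-6236 alone (-0.59 ± 0.10, adjusted p = 0.0014). None of these 4 libraries overlapped with another arm. Tazemetostat alone moved LAMA5 little: the log2 change was -0.07 in PSN1 (adjusted p = 0.036), 0.10 in SW1990 (0.053), 0.10 in KPC cells (0.028) and -0.09 in tumours (0.86). The KPC cell call was lost without the filter (0.066), with plain eBayes (0.056) and without the second control or the second or the third tazemetostat library (0.095, 0.08 and 0.11).

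LAMA4, the alpha chain of endothelial and muscle laminins, changed with tazemetostat in both human lines, with opposite signs, and was the chain with the largest such change in SW1990. In SW1990 it rose from 3.15, 3.21 and 3.22 FPKM to 6.57, 6.38 and 6.3 (2.01-fold, log2 change 0.82 ± 0.05, adjusted p = 5.4e-08). In PSN1 it went from 6.18, 5.77 and 5.68 to 4.68, 4.9 and 4.88 (-0.24 ± 0.04, adjusted p = 0.00022). The arms did not overlap in either line, and the difference between the lines was not tested. RMC-6236 raised LAMA4 in both, to 7.72, 7.38 and 7.58 in PSN1 (0.32 ± 0.04, adjusted p = 5.5e-06) and to 4.11, 4.58 and 4.78 in SW1990 (0.39 ± 0.05, adjusted p = 9.5e-06). With both drugs the lines parted: PSN1 was at 3.66, 3.58 and 3.43 FPKM, the lowest of its arms (-0.59 ± 0.04 from control, adjusted p = 8.9e-09), and SW1990 at 8.22, 8.07 and 8.19, the highest of its arms (1.13 ± 0.05, adjusted p = 1.1e-10). Against RMC-6236 alone the combination changed LAMA4 by -0.91 ± 0.04 in PSN1 and 0.74 ± 0.05 in SW1990 (adjusted p = 6.3e-10 and 6.3e-08).

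In KPC cells Lama4 was low throughout and under the filter, at 0.0992, 0.0995 and 0.0678 FPKM in control. Tazemetostat libraries were at 0.362, 0.363 and 0.4 and combination libraries at 0.527, 0.716 and 0.442, without overlap with control or with the 0.0859, 0.049 and 0.0982 of RMC-6236. Without the filter on low values the change from control was 0.34 ± 0.06 for tazemetostat (adjusted p = 0.0026) and 0.52 ± 0.06 for the combination (adjusted p = 3.4e-05). In tumours the change in Lama4 was with the combination. Control libraries were at 4.47, 4.69, 3.53 and 3.21 FPKM, tazemetostat at 5.47, 2.86, 3.45 and 5.16, RMC-6236 at 5.19, 5.49, 4.04 and 3.86, and the combination at 9.46, 10.2, 10.3 and 10. The 3 first arms overlapped with each other and lay below all combination libraries. The combination was 2.51-fold above control (1.15 ± 0.15, adjusted p = 2.1e-05) and 2.15-fold above RMC-6236 (0.97 ± 0.15, adjusted p = 0.0012).

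LAMA3, the alpha chain of the hemidesmosomal laminin, fell in SW1990 and rose from a low level in PSN1. SW1990 went from 49, 52.6 and 52.1 FPKM in control to 24.6, 29.1 and 28.3 with RMC-6236 (-0.89 ± 0.05, adjusted p = 4.8e-09) and to 25.7 in each of the 3 combination libraries (-0.97 ± 0.05, adjusted p = 1.1e-09). Tazemetostat gave a smaller fall, to 45.7, 44.6 and 46.3 FPKM (-0.17 ± 0.05, adjusted p = 0.025). That call was lost without the filter (adjusted p = 0.075) and without the second or the third control or the first or the second tazemetostat library (0.082, 0.074, 0.06 and 0.082). In PSN1 control libraries were at 0.984, 1.01 and 0.9 FPKM and RMC-6236 libraries at 1.55, 1.45 and 1.64 (0.37 ± 0.05, adjusted p = 1.7e-05). Tumours spread widely, from 1.58 to 11 FPKM within the tazemetostat arm alone, and no Lama3 difference passed in any of the 6 comparisons. In KPC cells all libraries were under 0.18 FPKM.

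LAMB2, a beta chain of mature basement membranes, rose with RMC-6236 in all 4 tables. The control libraries of PSN1 were at 16.5, 17.5 and 16.2 FPKM and those with RMC-6236 at 62, 64.7 and 63, a 3.78-fold difference (1.86 ± 0.03, adjusted p = 1.8e-14). KPC cells went from 16.3, 16.3 and 17.4 to 48.8, 50.5 and 47.2 FPKM (2.93-fold, 1.50 ± 0.04, adjusted p = 2.1e-12), and SW1990 from 15.2, 15.4 and 14.6 to 24.6, 25.1 and 26.4 (1.68-fold, 0.71 ± 0.04, adjusted p = 1e-09). In every line the arms were well apart. The tumour difference was small but without overlap, from 17.5, 19.7, 18.9 and 19.8 FPKM to 24.6, 22.1, 20.1 and 22.7 (1.18-fold, 0.22 ± 0.07, adjusted p = 0.02). It did not pass without the first control tumour (adjusted p = 0.064) or without the first RMC-6236 tumour (adjusted p = 0.066).

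Adding tazemetostat to RMC-6236 changed LAMB2 in the same tables by less. Combination libraries were at 56.5, 56.2 and 56.1 FPKM in PSN1, slightly below RMC-6236 alone (-0.17 ± 0.03, adjusted p = 0.00036). They were at 30.3, 29.9 and 30.7 in SW1990 and at 55.2, 58.4 and 56.8 in KPC cells, above RMC-6236 alone in both (0.25 ± 0.04 and 0.21 ± 0.04, adjusted p = 8.4e-05 and 0.00048). In tumours, at 25, 26, 24.8 and 21 FPKM, they overlapped with RMC-6236 (0.11 ± 0.07, adjusted p = 0.39) and were above control (0.33 ± 0.07, adjusted p = 0.0011). Tazemetostat alone lowered Lamb2 in KPC cells, to 12.7, 12.8 and 13.4 FPKM (-0.34 ± 0.04, adjusted p = 1.5e-05). A pseudogene of LAMB2 in the human tables, LAMB2P1, never exceeded 0.506 FPKM.

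LAMB1, the beta chain that LAMB2 can replace in a trimer, fell with RMC-6236 in all 4 tables. In SW1990 it fell from 22.4, 24.3 and 23.8 to 10.4, 11.8 and 11.9 FPKM (-0.99 ± 0.05, adjusted p = 2.5e-09). KPC cells fell from 42.1, 43.6 and 44 to 31.4, 30.7 and 32.3 (-0.45 ± 0.03, adjusted p = 8.4e-09), and PSN1 only from 41.8, 43 and 41.7 to 39.7, 39.6 and 37.4 (-0.11 ± 0.03, adjusted p = 0.0021). Control and RMC-6236 libraries did not overlap in any of the 3 lines. In tumours control libraries were at 60.1, 57.1, 46.5 and 49.4 FPKM and RMC-6236 libraries at 39.9, 43.2, 38.9 and 44 (-0.35 ± 0.12, adjusted p = 0.034). That call was lost without the first or second control tumour or the first or the third RMC-6236 tumour, with adjusted p of 0.1, 0.08, 0.074 and 0.083, and it was at 0.082 without the filter on low values and at 0.063 with the replicate block. The combination lowered LAMB1 further in PSN1, to 26.3, 27.1 and 27.8 FPKM (-0.51 ± 0.03 from RMC-6236, adjusted p = 8.6e-09), while in SW1990 it was somewhat higher than with RMC-6236, at 12.7, 13.6 and 14.1 (0.23 ± 0.05, adjusted p = 0.0039). In tumours the combination was at 27.8, 36, 33.7 and 40.3 FPKM, below control (-0.62 ± 0.12, adjusted p = 0.0006).

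The beta chains therefore took different shares of their summed FPKM, the share being computed within each library and given as a mean ± SD. In PSN1 the LAMB2 share went from 22.7 ± 0.54% in control to 52.8 ± 0.7% with RMC-6236 (n = 3 each), while LAMB1 went from 57.3 ± 0.33% to 32.5 ± 0.82%. KPC cells showed the same exchange, with Lamb2 at 27.6 ± 0.59% and 58.4 ± 1.4% and Lamb1 at 71.6 ± 0.6% and 37.6 ± 1.3%. In both, LAMB2 replaced LAMB1 as the leading beta chain. In SW1990 LAMB3 kept most of the sum, 87.7 ± 0.52% in control and 85.5 ± 0.23% with RMC-6236, and LAMB2 went from 4.79 ± 0.074% to 9.99 ± 0.19%. In tumours Lamb1 stayed the leading beta chain, with 56.2 ± 5.1% in control, 53.6 ± 3.6% with RMC-6236 and 48.6 ± 6.8% with the combination, while Lamb2 had 20.1 ± 1.9%, 28.8 ± 2.1% and 34.2 ± 2.9% (n = 4 each). These shares are descriptions without a test.

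**Figure D3:**
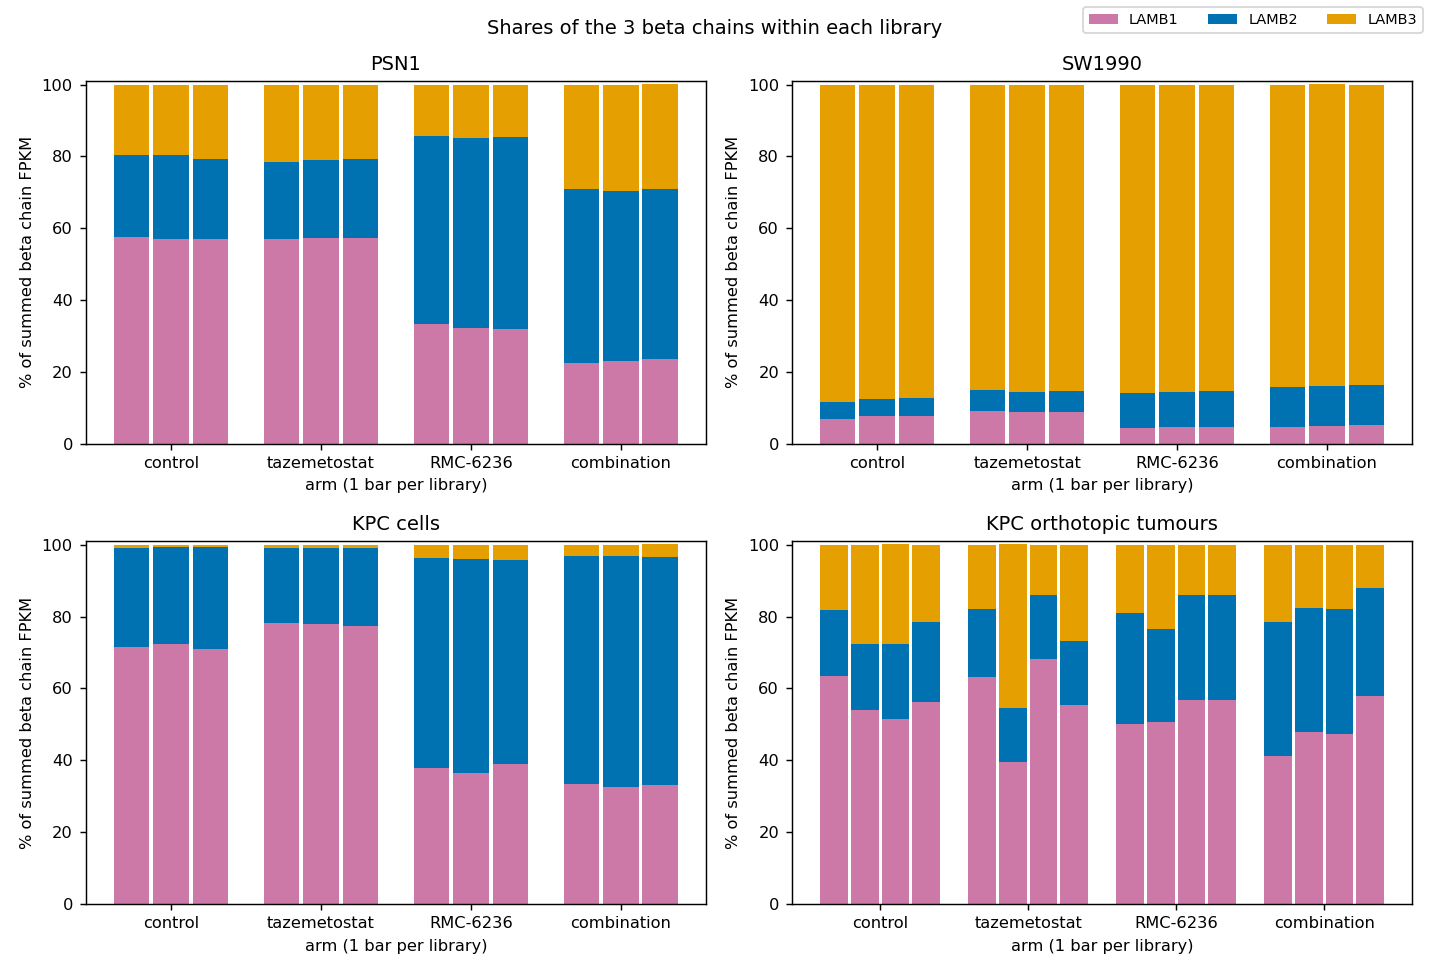
Share of LAMB1, LAMB2 and LAMB3 in the summed FPKM of the 3 beta chains (%), 1 bar per library, by arm and table. With RMC-6236 LAMB2 holds 52.2 to 53.5% of the sum in PSN1 and 56.8 to 59.7% in KPC cells, against 22.2 to 23.2% and 27 to 28.2% in control.

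LAMB3, the beta chain of the hemidesmosomal laminin, had a different pattern in each model. In KPC cells it rose from 0.517, 0.426 and 0.438 FPKM to 3.05, 3.42 and 3.57 with RMC-6236, 7.28-fold (1.57 ± 0.06, adjusted p = 1.4e-10), and was at 2.6, 2.76 and 3.02 with the combination. Lamb3 reached 1 FPKM there only in these 2 arms and passed the filter through them. Without the filter the limma change with RMC-6236 was 1.57 ± 0.06 (adjusted p = 6e-09). In PSN1 the large rise came only with the combination: control libraries were at 14.3, 14.8 and 15.3 FPKM, tazemetostat at 15.4, 15.1 and 15.1, RMC-6236 at 17.1, 18.2 and 17.2, and the combination at 33.9, 34.7 and 34.6. The combination was 2.33-fold above control (1.17 ± 0.03, adjusted p = 1.1e-12), where RMC-6236 alone gave 0.23 ± 0.03 (adjusted p = 1.2e-05) and tazemetostat 0.04 ± 0.03 (adjusted p = 0.32). The interaction, the change of the combination beyond the sum of both single-drug changes, was 0.90 ± 0.04 (adjusted p = 2e-08). SW1990 went the other way from a high level, from 284, 278 and 267 FPKM to 223, 226 and 227 with tazemetostat, 210, 220 and 222 with RMC-6236 and 228, 230 and 232 with the combination (-0.29, -0.35 and -0.26, adjusted p = 7.1e-06, 2.1e-07 and 2.1e-06). All 3 drug arms lay below control and close to each other.

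Tumour Lamb3 varied widely within arms, most of all with tazemetostat, where it ran from 12.7 to 50.4 FPKM. Control tumours were at 17.2, 29.1, 25 and 18.8 FPKM, RMC-6236 at 15, 20, 9.51 and 10.9, and the combination at 14.6, 13.1, 12.6 and 8.41. The combination lay below all controls but did not pass (-0.83 ± 0.34, adjusted p = 0.055). The second tazemetostat tumour stood high for both hemidesmosomal chains, with Lamb3 at 50.4 and Lama3 at 11 FPKM. The same tumour had an epithelial marker sum of 5184 FPKM against 2824 to 3507 in the other 3 of its arm and a fibroblast marker sum of 712 against 1331 to 1514, and the part of these cells in its values was not tested. Against tazemetostat the combination passed for Lamb3 (-0.87 ± 0.34, adjusted p = 0.047), a call that was lost for 11 of 16 tumours left out in turn, and without the second tazemetostat tumour the change was -0.50 (adjusted p = 0.15), while the fall from control then passed at an adjusted p of 0.013. That fall also passed in the fit of the compared arms alone (adjusted p = 0.0074) and with the replicate block (0.025).

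LAMC1, the shared gamma chain, did not pass with RMC-6236 in any table. The log2 change was 0.02 ± 0.02 in PSN1 (adjusted p = 0.49), -0.04 ± 0.04 in SW1990 (0.43), -0.03 ± 0.03 in KPC cells (0.32) and -0.14 ± 0.08 in tumours (0.19). In PSN1 the sign depended on scaling: with libraries rescaled by their median ratio the change was -0.07 (adjusted p = 0.005). The combination lowered LAMC1 in PSN1, from 67.6, 65.6 and 65.8 to 45.4, 44.8 and 45.8 FPKM (-0.54 ± 0.02, adjusted p = 4.5e-11), and raised it in KPC cells, from 43.8, 46 and 44.6 to 57, 61 and 60.2 (0.40 ± 0.03, adjusted p = 3.8e-08). Neither set of arms overlapped. Tazemetostat alone gave 53.4, 53.5 and 54.8 FPKM in PSN1 (-0.30 ± 0.02, adjusted p = 1.5e-07) and 49, 49.5 and 49.6 in KPC cells (0.14 ± 0.03, adjusted p = 0.0022).

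Tazemetostat alone lowered LAMC1 and LAMA4 in PSN1, raised LAMA4 in SW1990 and lowered Lamb2 in KPC cells, as described above. In PSN1 4 of 7 were lower (22.5% of genes) and 0 higher (23.6%), with a median of -0.07 beside -0.00 over all genes. The LAMA5 and LAMB2 calls among these 4, at -0.07 and -0.08, were lost when the filter on low values was dropped, at adjusted p of 0.079 and 0.082, and when the first or the second tazemetostat library was left out. Of 12 libraries left out in turn, 5 ended the LAMA5 call and 3 the LAMB2 call. In SW1990 1 was higher (23.1%) and 2 lower (14.4%), with a median of -0.00 beside 0.04. In KPC cells 3 of 5 were higher (18.6%) and 1 lower (25.5%), with a median of 0.10 beside -0.04. In tumours 0 of 7 chains and 0% of 13545 genes were called by limma, while 1 chain and 1023 genes had an unadjusted p under 0.05. The chains' log2 changes there ran from -0.29 for Lama3 to 0.05 for Lama4.

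With the combination against control every tested chain in cells was called. In PSN1 4 were higher (45.5%) and 3 lower (37.1%), in SW1990 4 and 3 (38.3% and 40.9%), and in KPC cells 4 and 1 (37.8% and 38.7%). In tumours 2 were higher (26.7%) and 3 lower (25.7%). The tumour chains that passed were Lama4 and Lamb2 upward and Lama5, Lamb1 and Lamc1 downward. Lamc1 went from 62.9, 55.2, 55.3 and 57.8 to 44.1, 54.3, 47.5 and 48.2 FPKM (-0.25 ± 0.08, adjusted p = 0.016) and did not pass without the first control or the first combination tumour (adjusted p = 0.057 for each). Median changes were 0.18, 0.12, 0.40 and -0.46 in PSN1, SW1990, KPC cells and tumours, beside 0.07, -0.02, -0.00 and -0.00 over all genes.

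Adding tazemetostat to RMC-6236 moved most chains downward in PSN1 and most upward in SW1990. Against RMC-6236 alone, 6 of 7 chains were lower in PSN1 (30.1% of genes) and 1, LAMB3, was higher (24.1%). In SW1990 6 of 7 were higher (29.8%) and 0 lower (18.3%), and median-ratio scaling moved the share of higher among all called genes there from 62% to 50.1%. Of these 6, LAMB3 was at 0.08 ± 0.03 (adjusted p = 0.038) and at 0.02 (adjusted p = 0.74) with median-ratio scaling, and it missed the threshold for 8 of 12 libraries left out in turn. LAMA3, the chain not called, was called lower in limma with median-ratio scaling (-0.14, adjusted p = 0.0019). It was also called lower without the first RMC-6236 library (-0.15, adjusted p = 0.0029). The difference between the lines was not tested. In KPC cells 2 were higher (20.3%) and 3 lower (28.5%), and 3 in all were called without the first combination library. In tumours 1 was higher (5.16%) and 1 lower (2.97%), Lama4 and Lama5. Medians were -0.51, 0.23, -0.10 and -0.14, beside -0.03, 0.04, -0.04 and -0.00 over all genes. These comparisons share the RMC-6236 or control libraries with those above.

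Against tazemetostat alone, the combination gave 3 higher (43.8%) and 3 lower (36.1%) in PSN1, 4 and 2 (33.6% and 42.3%) in SW1990, 3 and 1 (39% and 37.3%) in KPC cells and 2 and 4 (24.7% and 26.3%) in tumours. The largest of these was Lamb2 in KPC cells, 4.37-fold higher (2.05 ± 0.04, adjusted p = 6.4e-14). In tumours Lamb2 was 1.45-fold higher (0.51 ± 0.07, adjusted p = 3.1e-05).

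The interaction passed for 6 chains in PSN1, 1 higher (9.8% of genes) and 5 lower (13.8%). LAMB3 was the higher one, and LAMA4 at -0.67 ± 0.05 and LAMB1 at -0.48 ± 0.04 led the lower ones (adjusted p = 1.9e-06 and 2.4e-06). In SW1990 4 chains were higher (9.03%) and 0 lower (6.19%), led by LAMB3 at 0.37 ± 0.04 (adjusted p = 6.4e-05). The LAMC1 interaction among these, at 0.20, was lost without the filter (adjusted p = 0.058), with plain eBayes (0.053) and for 7 of 12 libraries left out in turn (0.053 to 0.078). KPC cells had 2 higher (12.1%) and 2 lower (13.7%), with Lamb2 at 0.55 ± 0.05 (adjusted p = 8e-06). In tumours only Lama4 passed, at 0.92 ± 0.22 (adjusted p = 0.044, 1.49% of genes higher and 0.369% lower), and its adjusted p ran from 0.026 to 0.088 over the alternative fits. It missed the threshold for 13 of the 16 tumours left out in turn and with the replicate block (adjusted p = 0.064).

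Lama1 and Lama2, alpha chains outside the 7, were low in tumours. Lama1 was at 0.074 to 0.404 FPKM in the control, tazemetostat and RMC-6236 arms and at 1.1, 1.64, 2.04 and 1.41 with the combination (1.12 ± 0.11 from control). It passed the filter on low values only through the combination libraries, so its test adds nothing to these levels. Lama2, the muscle alpha chain, was under the filter there, at 0.585 to 1.24 FPKM with the combination and at most 0.236 in all other tumours.

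In tumours several markers of other cell types moved with the chains. Lama4 was read beside 10 endothelial markers, whose summed level was 14.3 to 25.2 FPKM in control, 18 to 23.3 with RMC-6236 and 33.9 to 52.8 with the combination, none of them at 0. With the combination 10 of 10 were higher than with RMC-6236, as were 5.16% of all genes, and with RMC-6236 1 of 10 was higher than in control (20.3% of all genes). A mean of 1 FPKM or more was reached by 7 of the 10 in control, 8 with RMC-6236 and 10 with the combination. Some may thus have passed the filter on low values only through the combination libraries, so the 10 of 10 is partly set by the filter. Thus Lama4 and the endothelial list were both higher in the combination arm. The sum of 9 pericyte and smooth muscle markers was 16.3 to 24.7, 29.7 to 38.2 and 52 to 190 FPKM in the same arms. Of its 8 tested genes 8 were higher with the combination than in control (26.7% of all genes), and 5 higher than with RMC-6236 (5.16%). Of the 9 markers, 4 had a mean of 1 FPKM or more in control, 7 with RMC-6236 and 9 with the combination. These counts, too, are partly set by the filter, since some genes may have passed it only through arms where they are high. The 190 was the third combination tumour, and the others of that arm were at 52 to 64.4. Adipocyte markers summed to 2.33 to 3.8, 2.53 to 18.9 and 3.89 to 184 FPKM. The 184 was the same tumour, and the others of its arm were at 3.89 to 21.8. In KPC cells, whose levels were not compared with those of tumours, the endothelial sum was at most 3.9 FPKM. Mean Lama4 there was 0.0889 FPKM in control, 0.375 with tazemetostat and 0.562 with the combination. The part of endothelial cells in tumour Lama4 was not tested.

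Lama5 was read beside 8 epithelial markers. Their sum was 3125 to 3909 FPKM in control tumours, 1457 to 2038 with RMC-6236 and 865 to 1415 with the combination, and 4 of 8 were lower than control in either arm (19.2% and 25.7% of all genes). Lama5 was lower in the same arms. Between the combination and RMC-6236, where Lama5 fell by 0.59, 0 of 8 epithelial markers passed in limma and 3 had an unadjusted p under 0.05. Fibroblast markers summed to 986 to 1360, 3261 to 4319 and 3651 to 4257 FPKM, macrophage markers to 459 to 574, 1115 to 1582 and 1450 to 1986, and acinar markers to 12 to 42.4, 5.25 to 85.3 and 76.4 to 2776. The part of these cell types in the laminin results was not tested.

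**Figure D4:**
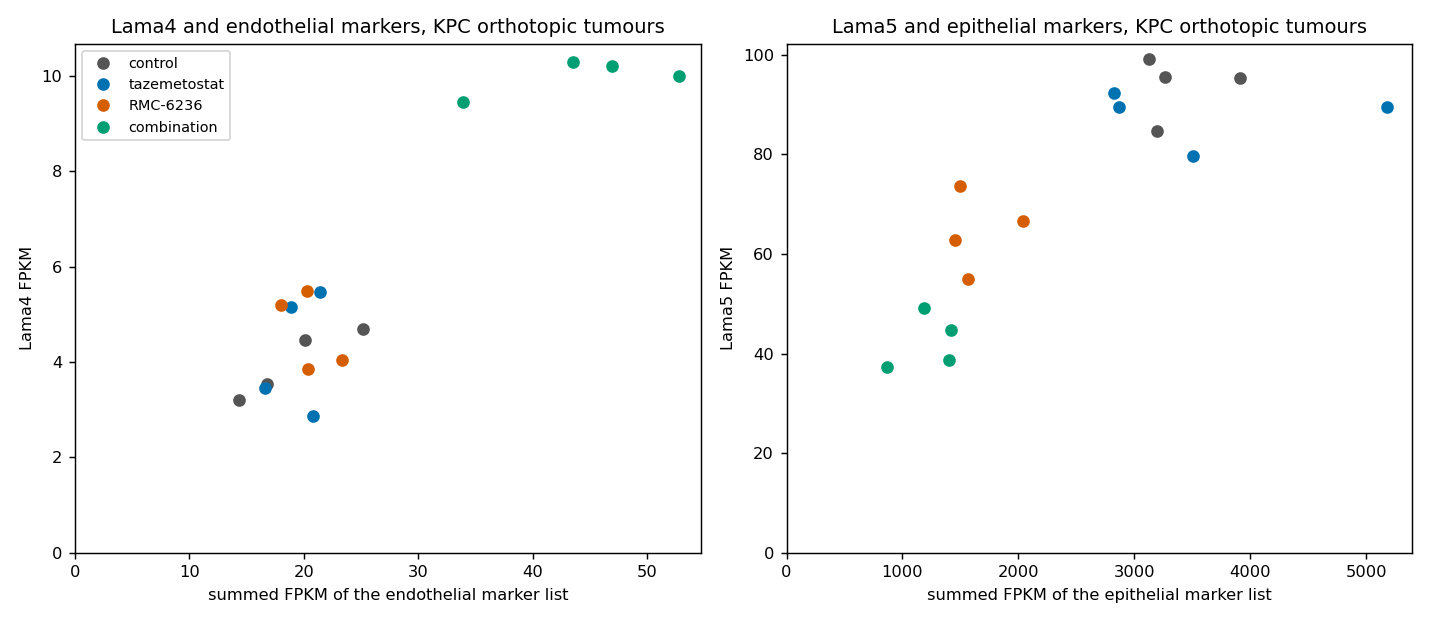
Left, Lama4 FPKM against the summed FPKM of 10 endothelial markers; right, Lama5 FPKM against the summed FPKM of 8 epithelial markers, 1 point per tumour coloured by arm. The 4 combination tumours lie apart at the upper right for Lama4, with endothelial sums of 33.9 to 52.8, and at the lower left for Lama5, with epithelial sums of 865 to 1415.

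Genes of other basement membrane proteins that laminins meet mostly rose with RMC-6236. Of the 24 partner genes listed, 10 of 11 tested were higher and 1 lower in PSN1, 8 and 3 of 13 in SW1990, 7 and 4 of 12 in KPC cells and 9 and 3 of 17 in tumours, with medians of 0.39, 0.46, 0.34 and 0.37 beside 0.08, -0.06, 0.02 and 0.01 over all genes. Of all genes tested, 45.8%, 30.7%, 37.9% and 20.3% were called higher in these tables and 34.6%, 41.7%, 35.8% and 19.2% lower. In PSN1 9 of the 24 had a mean of 1 FPKM or more in control and 11 with RMC-6236, so some may have been tested only through drug arms. NTN4, a netrin that binds laminin and disturbs its network, rose in PSN1 (1.18 ± 0.08), SW1990 (1.02 ± 0.08) and KPC cells (2.05 ± 0.05), with adjusted p of 1.6e-08, 1.3e-07 and 2.7e-12. HSPG2, the proteoglycan perlecan, rose in SW1990 (0.85 ± 0.04, adjusted p = 8e-10) and in tumours (0.78 ± 0.10, adjusted p = 4e-05). NID1, the nidogen that links laminin to collagen IV, rose with tazemetostat in PSN1 (0.97 ± 0.04, adjusted p = 7.9e-10) and KPC cells (0.78 ± 0.04, adjusted p = 6.9e-09).

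Laminin receptors and their anchors, 16 genes, were split. With RMC-6236 7 of 15 tested were higher and 5 lower in PSN1, 3 and 6 of 14 in SW1990, 7 and 5 of 15 in KPC cells and 3 and 4 of 15 in tumours, with medians of -0.01, -0.09, 0.07 and 0.11. Over all genes in the same tables the called shares were 45.8% higher and 34.6% lower in PSN1, 30.7% and 41.7% in SW1990, 37.9% and 35.8% in KPC cells and 20.3% and 19.2% in tumours. ITGA6, the alpha subunit of the hemidesmosomal integrin, fell in all 4 tables, by 1.22 ± 0.04 in PSN1, 1.39 ± 0.07 in SW1990, 0.76 ± 0.10 in KPC cells and 1.78 ± 0.11 in tumours (adjusted p = 9.1e-12, 8.8e-10, 2.8e-05 and 2.2e-07). ITGA3, another laminin-binding integrin subunit, changed by -1.05 ± 0.02 in PSN1, -0.68 ± 0.03 in SW1990 and -1.27 ± 0.11 in tumours (adjusted p = 4.9e-13, 7.4e-10 and 2.5e-06).

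Of 8 proteases that can process or cut laminin chains, 4 of 4 tested rose with RMC-6236 in PSN1, 4 rose and 1 fell of 6 in SW1990, 3 of 4 rose in KPC cells and 4 of 7 in tumours, with medians of 0.97, 0.39, 0.49 and 0.45. Over all genes 45.8%, 30.7%, 37.9% and 20.3% were called higher. In PSN1 only 1 of the 8 had a mean of 1 FPKM or more in control, against 3 with RMC-6236 and 4 with the combination. The others tested there may have passed the filter on low values only through drug arms where they are high. The 4 of 4 and the median of 0.97 are therefore partly set by the filter. BMP1, which trims laminin precursors, rose in each: 0.80 ± 0.03 in PSN1, 1.29 ± 0.04 in SW1990, 0.51 ± 0.04 in KPC cells and 0.86 ± 0.11 in tumours (adjusted p = 2.1e-10, 1.3e-11, 1e-07 and 3.1e-05). MMP2, a gelatinase, rose from 0.928 to 10.5 FPKM in PSN1 (2.58 ± 0.06, adjusted p = 4.4e-13).

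Genes with the pattern most like a chain were sought over the 12 changes from control in the 4 tables, by the root mean square difference among 8629 genes that passed the filter in all 4. For LAMA5 they were MINDY1 (0.23), PARD6B (0.24) and RNF213 (0.25), and for LAMB2 PYROXD2 (0.27), PINK1 (0.31) and BCL2L11 (0.32). For LAMB3 they were MISP (0.36), SLC44A3 (0.40) and CRB3 (0.40), all in log2 units. LAMB1 and LAMC1 had no change of 1 or more, their largest being 0.99 and 0.54 in size, so none were sought.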

How the data were processed

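RNA-seq data of PSN1, SW1990 and KPC cells and of KPC orthotopic tumours were used, in groups taken from the sample titles. Of 67 labelled samples 52 had value columns, and 15 subcutaneous tumours are not analysed here. The authors deposited FPKM values in a separate table for each model. Per the submitters' processing notes the tools were STAR 2.5.3a, StringTie 1.3.1c and FastQC 0.11.2. The notes list hg38 also for mouse samples, so the mouse build is not stated. The kit was stranded per the labels' protocols, but no source used here tells if counting used strand, so antisense reads cannot be told apart. Antisense genes of LAMA4 and LAMC1 were listed at 0 in the human lines, and LAMA5-AS1 reached at most 0.255 FPKM.

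From the deposited FPKM, log2(FPKM + 1) was computed for genes with at least 3 libraries (cells) or 4 libraries (tumours) at 1 FPKM or more. In R 4.3.3, limma 3.58.1 fitted the 4 arms of a table together (eBayes with trend and robust, statmod 1.5.0), with 6 comparisons each. All p-values were two-sided, and the Benjamini-Hochberg adjustment covered every gene tested in that table and comparison, with a threshold of 0.05. The script was tested on simulated data. Python packages were pandas 2.3.3, numpy 2.4.6 and matplotlib 3.10.9. The 7 chains are named throughout. From each other list, at most 4 called genes of the largest size in a comparison could be named, and for likeness the 3 nearest genes. The members, lists, settings and alternatives were chosen with earlier results of these data known. Alternatives were a smaller pseudocount (0.1), no filter, scaling by median ratios, a block for the replicate number, plain eBayes, fits of the compared arms alone, and leaving out each library. No 2 libraries held identical values. Some genes are not reported here.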

Additional observations from a re-analysis of the deposited data

Results flagged for a closer look

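For 15 chains and tables the RMC-6236 effect differed with and without tazemetostat by the interaction term of the fit (adjusted p under 0.05), out of 26 checked. In PSN1 the interaction was 0.90 for LAMB3 and negative for LAMA3 (-0.27), LAMA4 (-0.67), LAMA5 (-0.46), LAMB1 (-0.48) and LAMC1 (-0.26). In SW1990 it was 0.23 for LAMA5, 0.24 for LAMB2, 0.37 for LAMB3 and 0.20 for LAMC1, all positive, and the LAMC1 call was lost for 7 of 12 libraries left out in turn. In KPC cells Lama5 (-0.22) and Lamb1 (-0.23) were negative and Lamb2 (0.55) and Lamc1 (0.29) positive. In tumours Lama4 was at 0.92, a call lost for 13 of 16 tumours left out in turn.

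Other chains are named because every library of an arm moved one way in 1 model and the opposite way in another, a difference between tables that was not tested. With tazemetostat against control, LAMA4 changed by -0.24 in PSN1 and 0.82 in SW1990, and LAMA5 by -0.07 and 0.10. With RMC-6236 against control, LAMA3 changed by 0.37 in PSN1 and -0.89 in SW1990, LAMB3 by 0.23 and -0.35, and Lama5 by 0.25 in KPC cells and -0.54 in tumours. With the combination against RMC-6236, PSN1 and SW1990 differed in sign for LAMA4 (-0.91 and 0.74), LAMA5 (-0.52 and 0.33), LAMB1 (-0.51 and 0.23), LAMB2 (-0.17 and 0.25) and LAMC1 (-0.55 and 0.16).

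1 library stood apart by Dixon's test for single outliers among the 28 pairs of chain and tumour arm checked: Lamc1 in the second tazemetostat tumour, at 49.7 FPKM against 60.1 to 61.4 in the other 3. Its epithelial marker sum was 5184 FPKM against 2824 to 3507 in those 3. Chance flags about 1 in 20 such groups.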

How the results depend on the processing

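Of 910 chain changes under alternatives other than leaving out a library, 873 kept their direction and their side of the threshold, 26 lost the call, 10 gained one and 1 changed sign, LAMC1 with RMC-6236 in PSN1 under median-ratio scaling (-0.07). COL7A1 in PSN1 with RMC-6236 also changed sign there, from 0.06 to -0.02. Of 2040 changes with a library left out, 1958 kept both, 68 lost the call and 14 gained one. The number of chains called moved by over 1.5 times in 4 of 24 comparisons. For tazemetostat in PSN1 it was 4 and fell to 2 without the filter, with plain eBayes (no trend, not robust) and in fits of the compared arms alone, and it ran from 2 to 4 with a library left out. For the combination against RMC-6236 in KPC cells it ran from 3 (without the first combination library) to 5 with a library left out. For RMC-6236 in tumours it was 3 and ran from 1 (without the first control or the first RMC-6236 tumour) to 4. The interaction in tumours went from 1 to 0 with a pseudocount of 0.1, without the filter and with the replicate block, and ran from 0 to 1 with a library left out. Causes were not tested. Median-ratio scaling moved the share of higher among called genes from 61.7% to 50% for tazemetostat in SW1990 and from 41.5% to 55.2% for the interaction in PSN1. Samples of a table share replicate numbers, and deviations of same-numbered samples correlated from -0.05 to 0.16 in PSN1, -0.16 to 0.39 in SW1990, from -0.09 to 0.13 for KPC cells and from -0.40 to 0.34 for tumours. Best correlated with their own number were 5 of 12, 5 of 12, 8 of 12 and 4 of 16 libraries. The number was not taken as pairing in the main fit. For KPC cells, where most libraries matched their own number, these counts do not settle whether there was pairing. Mean correlation there was 0.02 for same-numbered samples and -0.01 for others. The replicate block moved the count of chains called by over 1.5 times only in the tumour interaction. FPKM keep no counts, so the precision of low chains is known only from the spread between libraries.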

Other observations

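Several laminin receptor genes were lower with both drugs than with RMC-6236 in PSN1, SW1990 and tumours. Against RMC-6236 alone, 8 of 15 tested receptor and anchor genes fell and 1 rose in PSN1 (median -0.15), 6 fell and 1 rose of 14 in SW1990 (-0.07), and 3 fell and 0 rose of 15 in tumours (-0.04). Over all genes 30.1%, 18.3% and 2.97% were called lower in these comparisons and 24.1%, 29.8% and 5.16% higher. ITGA6, the alpha subunit of the hemidesmosomal integrin, fell from a mean of 31.7 to 13.5 FPKM in SW1990 (-1.17 ± 0.07, adjusted p = 2.2e-08). COL17A1, a collagen of the hemidesmosome, fell there from 51.5 to 38.1 FPKM (-0.42 ± 0.03, adjusted p = 2.5e-07). In tumours the fallen genes were Itgb4 (-0.64 ± 0.12), Itga3 (-0.51 ± 0.11) and Itga6 (-0.39 ± 0.11), with adjusted p of 0.0044, 0.012 and 0.045. KPC cells differed in count, with 7 of 15 higher and 4 lower (median 0.05, beside 20.3% and 28.5% of all genes), and Itga7, the muscle laminin integrin subunit, rose from 3.92 to 7.98 FPKM (0.87 ± 0.07, adjusted p = 4.3e-07).

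Basement membrane partners and proteases gave mixed values in the same comparison. SMOC1 rose from 1.12 to 4.54 FPKM in PSN1 (1.38 ± 0.07, adjusted p = 6.2e-09). Col18a1, the collagen that holds endostatin, fell from 49.1 to 30.1 FPKM in KPC cells (-0.69 ± 0.03, adjusted p = 1.9e-09) and from 137 to 80.2 in tumours (-0.77 ± 0.11, adjusted p = 0.0006), while COL18A1 rose from 12.3 to 17 FPKM in SW1990 (0.44 ± 0.05, adjusted p = 4.2e-06). Col15a1, a related vascular and muscle collagen, rose in tumours from 15.5 to 34.8 FPKM (1.11 ± 0.19, adjusted p = 0.0026). The endothelial marker sum was also higher there, at 33.9 to 52.8 FPKM against 18 to 23.3. The part of endothelial cells in Col15a1 was not tested. MMP7, a matrix protease, rose from 0.722 to 2.78 FPKM in PSN1 (1.13 ± 0.07, adjusted p = 1.5e-08) and from 0.315 to 2 in SW1990 (1.19 ± 0.06, adjusted p = 2.6e-09). Its means with RMC-6236 were under 1 FPKM, so MMP7 may have passed the filter on low values only through the combination libraries. Where it did, its test adds nothing to these levels. MMP2 rose from 18 to 41.2 FPKM in SW1990 (1.15 ± 0.05, adjusted p = 6.5e-10) and from 38.2 to 115 in tumours (1.56 ± 0.24, adjusted p = 0.00099).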
